A study of Mus musculus with 8 samples.

Results

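Interferon-stimulated genes were followed in sorted mouse blood stem and progenitor cells labelled Hira KO or WT. The 50 genes were a fixed list of antiviral effectors, nucleic acid sensors and signalling genes, set by name with no threshold on their values. The list was chosen with earlier results of these data known. Its shares set beside those of all tested genes are therefore descriptive. All 50 were matched by Ensembl identifier among the 45706 genes of the RNA tables, and 49 of them stood among the 16258 genes with enough counts to be tested.

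Cells that detect viral nucleic acid secrete interferons, which bind receptors on the same and neighbouring cells. Type I interferon (alpha and beta) activates the kinases Jak1 and Tyk2, which phosphorylate Stat2. A complex that holds Stat2 and Irf9 binds the interferon-stimulated response element in promoters, while gamma interferon acts at the gamma-activated sequence. Blood stem cells are known to respond to interferon, and several of these genes are also transcribed in stem cells without infection.

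The study measured RNA (RNA-seq) and open chromatin (ATAC-seq, in which a transposase cuts accessible DNA) in LSK cells, the lineage-negative, Sca-1-positive and c-Kit-positive bone marrow fraction sorted to hold the stem and early progenitor cells. Each assay had 2 libraries labelled Hira KO and 2 labelled WT. The labelled Hira KO cells carried a conditional knockout of Hira, whose product deposits histone H3.3 outside DNA replication, on C57BL/6, and the control was labelled wild type on the same strain. The labels used here give no Cre driver, time of deletion, age, treatment or animal number, so the p-values measure only the spread between these libraries.

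The labels need a caution before any direction is read. Hira itself had 24.4 and 23.3 CPM (read counts normalised to library size) in the labelled Hira KO libraries, against 16.5 and 17.2 CPM in the labelled WT libraries. Its log2 fold change was 0.50 (SE 0.19, edgeR FDR = 0.180, where FDR is the Benjamini-Hochberg adjusted p over all genes tested), upward in the group labelled as lacking it, and reads outside a deleted exon would still be counted. The deposited data of all 8 libraries were also named with the opposite genotype from their titles. Groups below follow the titles and are called labelled Hira KO and labelled WT; if the names were right instead, every direction would turn round.

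The RNA libraries held 17.5 and 19.4 M counts in labelled Hira KO and 16.6 and 19.8 M in labelled WT. Mitochondrial genes took 42.9% and 53.1% of the counts in labelled Hira KO and 40.8% and 51.7% in labelled WT. Labelled Hira KO replicate 2 stood apart, with only 6 counts of AY036118 where the remaining libraries had 86174 to 108841. Labelled WT replicate 2 had 1470 counts of the X-inactivation transcript Xist and 906 of the Y-linked gene Ddx3y, against 169234 to 232764 and 1 to 2 counts in the others, so it differed in sex from the other labelled WT library.

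Interferon-stimulated genes were mostly higher in labelled Hira KO cells, led by Ifi44, Oas2, Oasl2 and Ddx58. Of 49 tested, 7 rose and 0 fell (edgeR quasi-likelihood test, Benjamini-Hochberg adjusted p below 0.05 over all genes tested), where 1.32% of all tested genes rose and 0.48% fell. The 7 were Ifi44, Oas2, Oasl2, Ddx58, Ifit1, Xaf1 and Ifi203. A further 11 had an adjusted p between 0.05 and 0.1, all with a positive log2 fold change. At an unadjusted p below 0.05 there were 25 genes upward and 0 downward, where 12.2% of all tested genes were upward.

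The median log2 fold change (labelled Hira KO over labelled WT) was 0.60 over the 49 genes and 0.01 over all tested genes. It lay above 0 in 44 genes, where 50.9% of all tested genes did, and reached 1 in 15 genes, where 11.5% did. Both labelled Hira KO libraries exceeded both labelled WT libraries in 33 of 49 genes, against 28.3% of all tested genes. The reverse held in 1 gene, Bst2, against 27.8% of all tested genes. In the other 15 genes the groups overlapped. The shift was seen between each pair of libraries: the median log2 ratio was 0.55 and 0.65 for labelled Hira KO replicate 1 over labelled WT replicates 1 and 2, and 0.54 and 0.69 for labelled Hira KO replicate 2. Between libraries of the same label it was 0.09 (labelled Hira KO replicate 2 over 1) and 0.11 (labelled WT replicate 1 over 2).

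How many genes passed depended on the labelled WT libraries. Without labelled WT replicate 1, 0 of the 50 genes then tested passed, and without labelled WT replicate 2, 0 of 49 passed; among all genes 3 and 1 then rose. The log2 fold changes of the 7 genes stayed between 0.73 and 3.24 without labelled WT replicate 1 and between 0.73 and 2.48 without replicate 2. Without labelled Hira KO replicate 1, 20 rose and 1 (Ifi47) fell, where 9.45% of all tested genes rose, and without replicate 2, 15 rose, where 3.89% did; the 7 genes were among them each time. With a library left out an arm holds 1 library, which is assumed to vary like the pair of the other group, so these calls rest on the spread of that pair alone. DESeq2 called 18 higher and 0 lower, with 5.65% of all tested genes called higher.

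**Figure D1:**
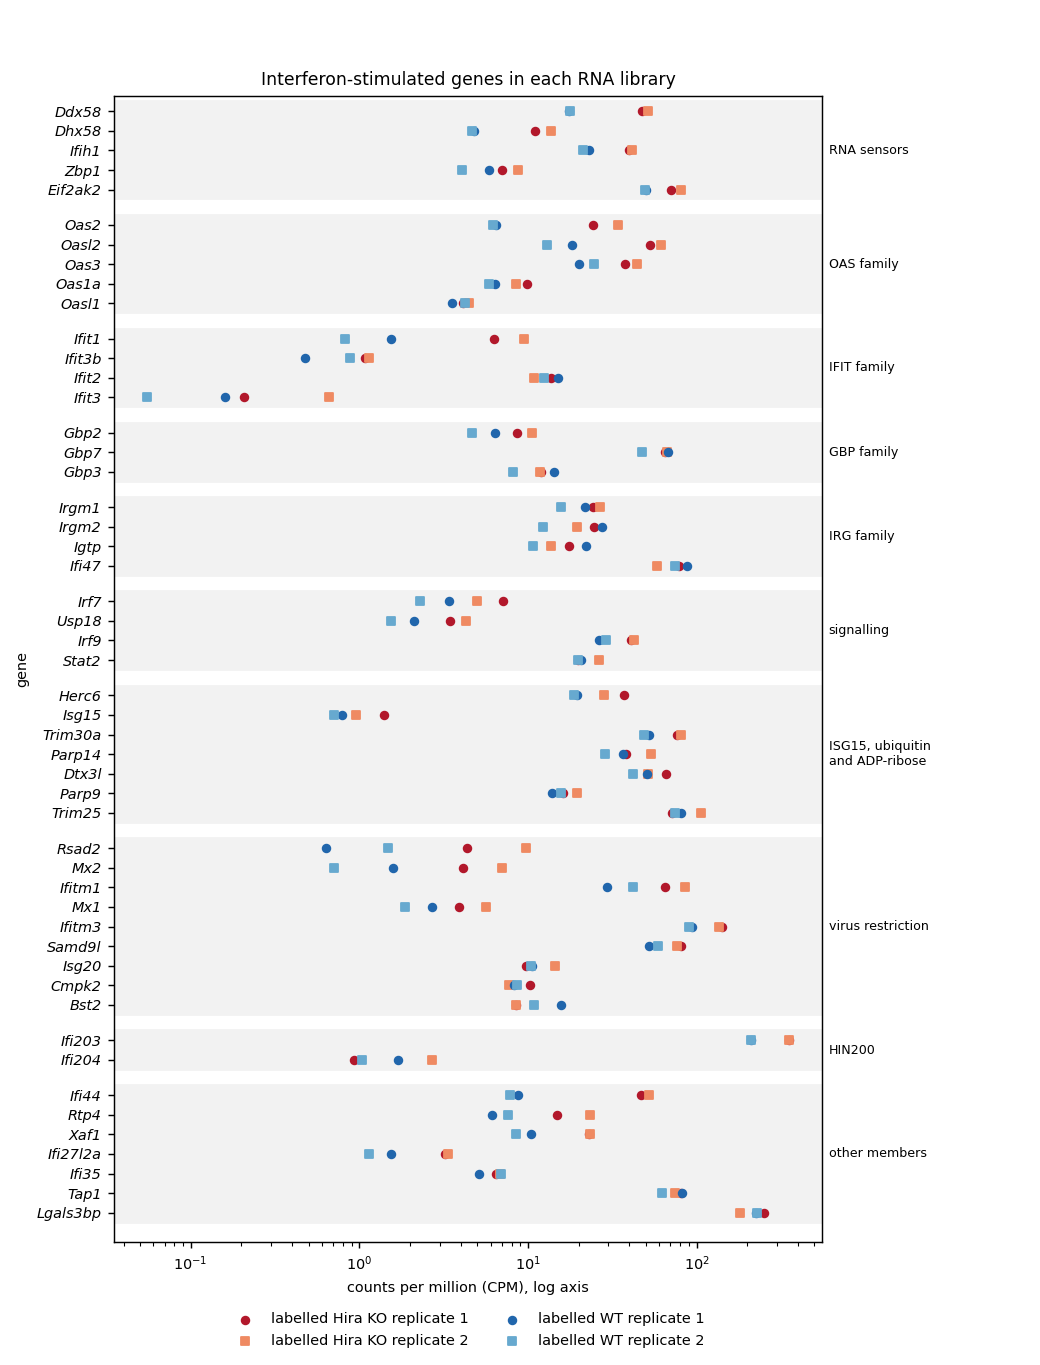
Expression of the 50 interferon-stimulated genes in each RNA library, in CPM on a log axis, grouped by family and ordered by log2 fold change within it. Labelled Hira KO replicates are red and orange, labelled WT replicates dark and light blue; the red and orange points of Ifi44, Oas2, Oasl2, Ddx58 and Ifit1 lie well to the right of the blue ones, while those of Ifit2, Igtp and Ifi47 mix.

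All 5 RNA sensor genes were above both labelled WT libraries in both labelled Hira KO libraries, where 28.3% of all tested genes were. Their median log2 fold change was 0.87. Only Ddx58, which encodes the viral RNA helicase RIG-I (chr4:40203777-40239825, GRCm38.p6), rose past the threshold. Ddx58 had 47.7 and 51.3 CPM in labelled Hira KO, against 17.6 and 17.7 CPM in labelled WT. The replicates lay close together and far from the other group (log2 fold change 1.49, SE 0.17; edgeR FDR = 0.0192). Ifih1 (MDA5, a sensor of long double-stranded RNA) had a log2 fold change of 0.87 (edgeR FDR = 0.0553) and Dhx58 (LGP2, which modulates both helicases) had 1.39 (0.0563). Eif2ak2 encodes PKR, the RNA-activated kinase that halts translation. It was the family's most abundant member per transcript length, at 26.7 and 24.0 TPM in labelled Hira KO and 21.3 and 13.8 TPM in labelled WT. In CPM it had 70.5 and 80.5 in labelled Hira KO and 49.9 and 49.7 in labelled WT, with a log2 fold change of 0.60 (SE 0.15, edgeR FDR = 0.0851). Zbp1, which senses Z-form nucleic acid, had a log2 fold change of 0.67.

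For Ddx58 the scale mattered. On log2(TPM + 1) its log2 fold change was 0.97 (limma adjusted p = 0.245). The deposited effective length of the gene, by which TPM divides, was 2846 and 2497 bases in labelled Hira KO and 2133 and 1946 bases in labelled WT. Effective length is averaged over a gene's transcripts by their estimated shares, so it moves with the estimated mix. That scale also adds a pseudocount and another test, and what each of these did to the call was not tested. Xaf1 also had longer effective lengths in labelled Hira KO, with 1153 and 1406 bases in labelled Hira KO and 1009 and 1002 bases in labelled WT, and a log2 fold change of 0.84 on that scale (limma adjusted p = 0.357). The other 5 called genes had mean effective lengths in labelled Hira KO between 97.7% and 101% of those in labelled WT. Ifi203 (0.67 on that scale, limma adjusted p = 0.538) was also not called there.

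The active enzymes of the OAS family make short oligoadenylates that activate the ribonuclease RNase L. Across the family's 5 listed genes the median log2 fold change was 0.87, and 2 rose. Oas2 (chr5:120730333-120749886) had 24.2 and 34.3 CPM in labelled Hira KO, against 6.51 and 6.24 CPM in labelled WT. The lower labelled Hira KO value was well above both labelled WT values, with a log2 fold change of 2.20 (SE 0.25, edgeR FDR = 0.0192). Oasl2 (chr5:114896926-114912245), a related gene and the family's most abundant by TPM, had 53.3 and 61.2 CPM in labelled Hira KO and 18.2 and 12.97 CPM in labelled WT. Its log2 fold change was 1.88 (SE 0.22, edgeR FDR = 0.0192). Neighbouring genes had unlike values: Oas3, 3.2 kb from Oas2, had 0.87 (edgeR FDR = 0.0656), and Oasl1, 10.9 kb from Oasl2, had 0.14 with overlapping groups. Oas1a had 0.59.

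The 4 IFIT genes, whose products bind foreign RNA and block its translation, lie in a row on chromosome 19 and had unlike values. Ifit1 (chr19:34640889-34650009) had 6.32 and 9.50 CPM in labelled Hira KO, against 1.54 and 0.821 CPM in labelled WT, a log2 fold change of 2.74 (SE 0.46, edgeR FDR = 0.0417). It rested on 122 and 158 counts in labelled Hira KO and 29 and 15 in labelled WT. Ifit2, the most abundant of the family by TPM, had 13.8 and 10.9 CPM in labelled Hira KO and 15.1 and 12.5 CPM in labelled WT (log2 fold change -0.16, SE 0.25, edgeR FDR = 0.754). Its groups overlapped. Ifit3 was the 1 gene of the list with too few counts to test, at 4 and 11 counts in labelled Hira KO and 3 and 1 in labelled WT. Ifit3b had 0.72 with an SE of 0.73. Ifit3 and Ifit3b are near copies, and the authors' posterior SD of the count reached 25.1% and 18.8% of it, so their division of reads is uncertain.

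The GBP and IRG families encode GTPases that act on pathogen vacuoles and are best known as targets of gamma interferon; 0 of the 7 on the list passed in either direction by edgeR, and 1 (Gbp2) had an unadjusted p below 0.05, upward. For the 3 GBP genes the median was 0.20 on the log2 scale. Gbp7, the most abundant by TPM, had 65.3 and 66.6 CPM in labelled Hira KO and 67.4 and 47.2 CPM in labelled WT (0.20, SE 0.20, edgeR FDR = 0.585), with overlapping groups. Gbp3 had 0.09, and Gbp2 had 0.80 without overlap (edgeR FDR = 0.180). The 4 IRG genes had a median of 0.04, and 3 of them overlapped between the groups. Ifi47, the most abundant by TPM, had 79.1 and 58.1 CPM in labelled Hira KO and 87.2 and 74.2 CPM in labelled WT (-0.23, SE 0.19, edgeR FDR = 0.511). Igtp had -0.07, Irgm2 0.15 and Irgm1 0.44. These 7 genes moved with a single labelled WT library: without labelled WT replicate 2 the GBP median was -0.045 and the IRG median -0.34, and without labelled WT replicate 1 they were 0.54 and 0.61.

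**Figure D2:**
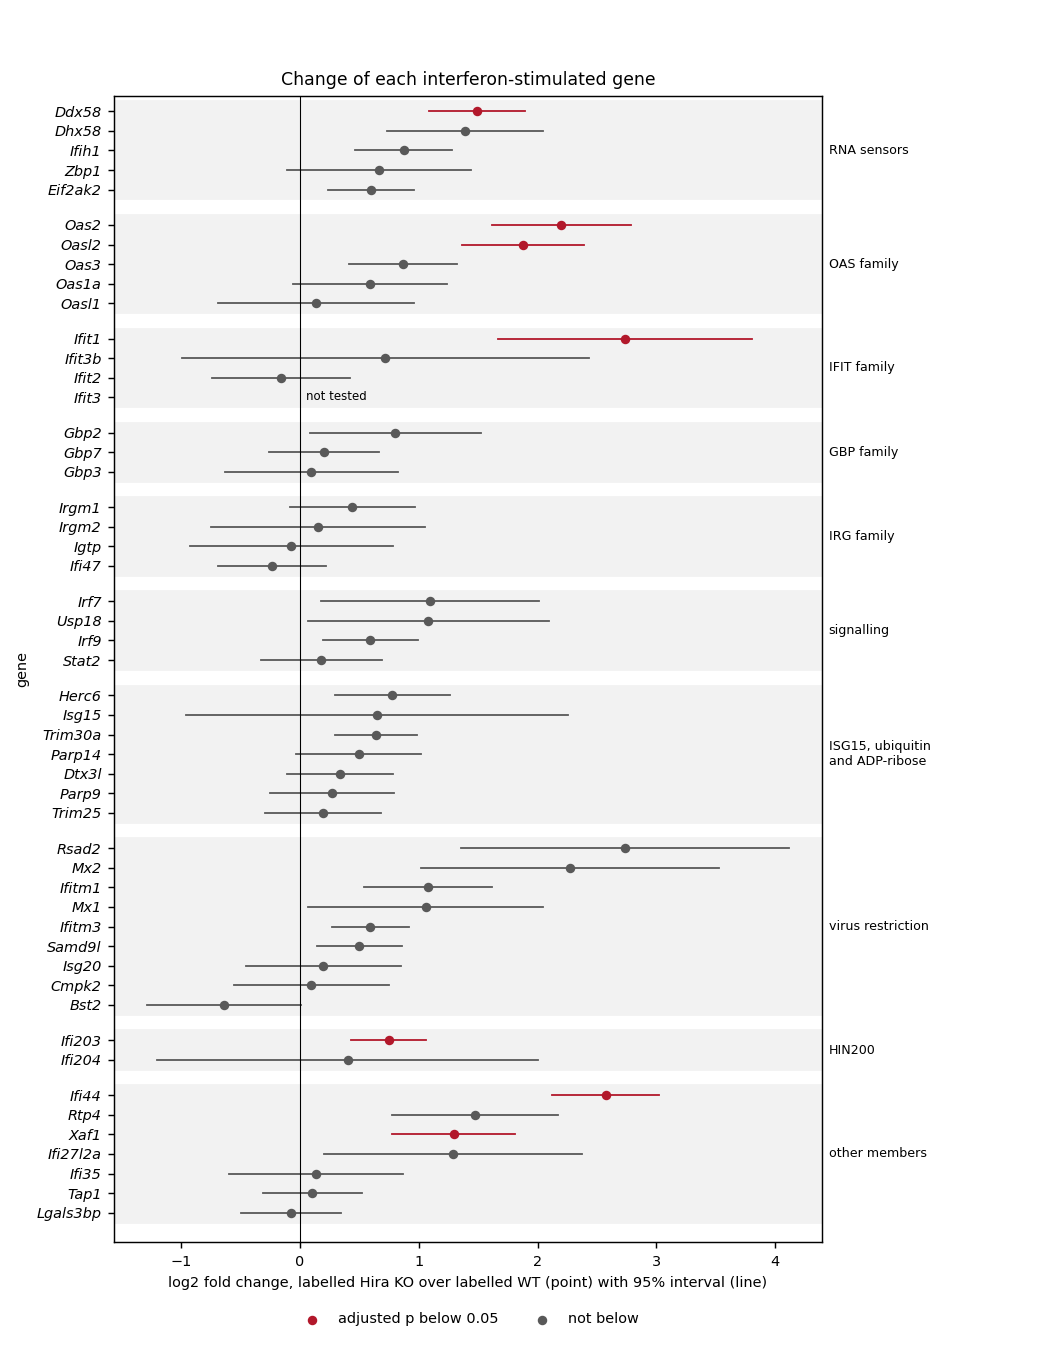
Log2 fold change of each interferon-stimulated gene, labelled Hira KO over labelled WT, with its 95% interval, in the same order as the plot of expression. Red marks the 7 genes with an edgeR adjusted p below 0.05; the RNA sensor and OAS points all lie right of 0, and the IRG points lie on both sides of it.

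Among the signalling genes 0 of 4 passed, 3 of them having an unadjusted p below 0.05 by edgeR, all upward, with a median of 0.84. Irf9, the DNA-binding partner of Stat2 and the most abundant of these by TPM, had 40.8 and 42.5 CPM in labelled Hira KO and 26.3 and 28.9 CPM in labelled WT (0.59, SE 0.17, edgeR FDR = 0.104). The groups did not overlap. Irf7, which amplifies interferon transcription, had 1.09 (edgeR FDR = 0.160). In TPM its groups overlapped, at 5.50 and 3.97 in labelled Hira KO and 5.07 and 1.85 in labelled WT. Its effective length was 1648 and 1184 bases in labelled Hira KO and 873 and 1236 bases in labelled WT. Usp18, which removes Isg15 from proteins and dampens the type I receptor, had 1.08 (0.196). Stat2 had 0.18 with overlapping groups.

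Genes of Isg15, ubiquitin and ADP-ribose transfer had a median of 0.49, all 7 above 0, 0 past the threshold and 2 at an unadjusted p below 0.05 by edgeR. Trim30a, a ubiquitin ligase family member and the most abundant of these by TPM, had 77.0 and 80.8 CPM in labelled Hira KO and 52.4 and 49.1 CPM in labelled WT (0.64, SE 0.15, edgeR FDR = 0.0707). Herc6, the main Isg15 ligase of the mouse, had 0.78 (edgeR FDR = 0.0913). Isg15 itself was low, at 1.40 and 0.962 CPM in labelled Hira KO and 0.794 and 0.711 CPM in labelled WT (0.65, SE 0.69). Dtx3l and Parp9, whose products form a complex, overlap in the annotation and had 0.34 and 0.27. Parp14 had 0.49 and Trim25, which ubiquitinates RIG-I, had 0.20.

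Of the 9 virus restriction genes, which act on entry, replication or release, 0 passed and 6 had an unadjusted p below 0.05 by edgeR, all upward, with a median of 0.59. Rsad2 (viperin, which makes a chain-terminating nucleotide) had the second largest log2 fold change of the list, 2.74 with an SE of 0.59. It had 4.35 and 9.80 CPM in labelled Hira KO, against 0.635 and 1.48 CPM in labelled WT, and an edgeR FDR of 0.0634. Cmpk2, a nucleotide kinase gene 12.7 kb away, had 0.10. Mx2 had 4.14 and 7.03 CPM in labelled Hira KO and 1.59 and 0.711 CPM in labelled WT (2.27, SE 0.53, edgeR FDR = 0.0723), and Mx1 had 1.06. Ifitm3, which blocks fusion of virus with endosomes, was the most abundant gene of the list by TPM, at 386 and 276 TPM in labelled Hira KO and 272 and 199 TPM in labelled WT. In CPM it had 142 and 137 in labelled Hira KO and 94.6 and 89.9 in labelled WT (0.59, SE 0.14, edgeR FDR = 0.0719). Ifitm1, 39.8 kb away, had 1.08 (0.0631). Samd9l had 0.50 and the exonuclease gene Isg20 had 0.20. Bst2 (tetherin, which holds budding virus at the cell surface) lay on the other side, at 8.55 and 8.53 CPM in labelled Hira KO and 15.8 and 10.9 CPM in labelled WT (-0.64, edgeR FDR = 0.222).

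Ifi203, a gene of the HIN200 family of DNA-binding proteins (chr1:173920400-173942866), was the most highly counted gene of the list. It had 356 and 355 CPM in labelled Hira KO, against 211 and 212 CPM in labelled WT. The replicates of each group were almost equal, and its log2 fold change was 0.75 (SE 0.13, edgeR FDR = 0.0474). Its relative Ifi204 had 0.40 with an SE of 0.68 and overlapping groups.

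Ifi44 (chr3:151730922-151749910), a cytoplasmic protein gene used widely as an interferon marker, had the smallest p-value of the list. It had 46.7 and 52.4 CPM in labelled Hira KO, against 8.79 and 7.88 CPM in labelled WT, which is 2.57 on the log2 scale (SE 0.19, 95% interval from 2.12 to 3.02, edgeR FDR = 0.00798). Xaf1 (chr11:72301461-72313733), named for binding the apoptosis inhibitor XIAP, had 23.0 and 23.3 CPM in labelled Hira KO and 10.4 and 8.48 CPM in labelled WT (1.29, SE 0.22, edgeR FDR = 0.0427). Rtp4 had 1.48 (edgeR FDR = 0.0563) and Ifi27l2a had 1.29 (0.162). Of the remaining genes, Ifi35 had 0.14 and Tap1, the peptide transporter of antigen presentation, had 0.10. Lgals3bp, a secreted glycoprotein gene and the most abundant of this group by TPM, had 250 and 182 CPM in labelled Hira KO and 225 and 229 CPM in labelled WT (-0.07, SE 0.18, edgeR FDR = 0.846). By mean TPM over the 50 genes, Ifit1 and Rsad2 ranked 45 and 47, and Oasl2 and Ddx58 ranked 10 and 15.

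Interferon transcripts themselves were hardly seen. Of 13 interferon genes listed, 0 had enough counts to test, and 7 (Ifna1, Ifna5, Ifna11, Ifnab, Ifne, Ifnl2 and Ifnl3) had 0 counts in all libraries, where 3 counts in a library is the limit that 0 allows. Ifnb1 had 1 and 0 counts in labelled Hira KO and 0 and 0 in labelled WT. The largest count was 12, of Ifng in labelled Hira KO replicate 2, against 2 in replicate 1 and 2 and 0 in labelled WT. At this depth a difference in interferon transcripts was not detectable, and interferon made by cells outside the sorted fraction was not measured.

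The receptors and kinases had a median of -0.01 over 9 genes, with 0 higher and 1 lower, where 1.32% of all tested genes rose and 0.48% fell. Ifngr1, the ligand-binding chain of the gamma interferon receptor, fell. It had 48.3 and 39.1 CPM in labelled Hira KO, against 82.8 and 87.5 CPM in labelled WT (log2 fold change -0.96, SE 0.17, edgeR FDR = 0.0436). The groups did not overlap. The type I receptor genes had small values, 0.09 for Ifnar1 and -0.01 for Ifnar2. Jak1 had 0.70 (edgeR FDR = 0.0586).

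Among 16 genes of STAT and IRF factors and their feedback regulators outside the list, 0 passed in either direction, with a median of 0.22; 6 upward and 2 downward had an unadjusted p below 0.05 by edgeR. The smallest p-values belonged to Irf2 (0.91, edgeR FDR = 0.0586) and Irf4 (1.14, edgeR FDR = 0.0685). Of 19 tested genes of upstream sensing 1 rose: Tlr7, the endosomal receptor for single-stranded RNA, had 23.7 and 20.7 CPM in labelled Hira KO and 5.93 and 7.77 CPM in labelled WT (1.70, SE 0.25, edgeR FDR = 0.0337). The median of these 19 was 0.03, and of all tested genes 1.32% rose.

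**Figure D3:**
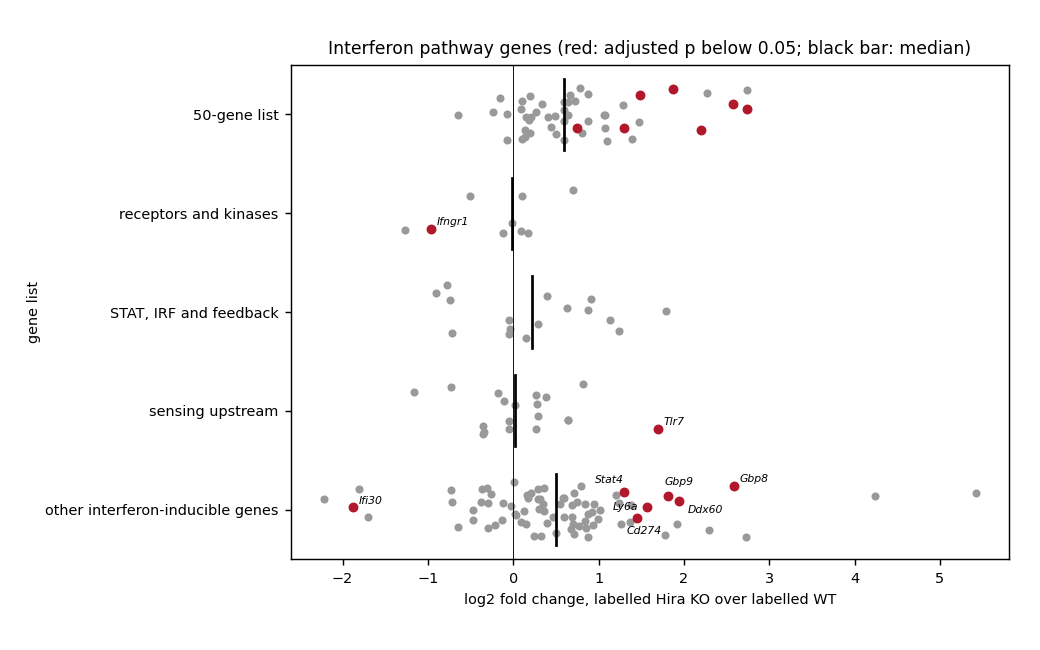
Log2 fold change, labelled Hira KO over labelled WT, of the tested genes of the 50-gene list and of the other lists of the interferon pathway; each point is a gene, red marks an edgeR adjusted p below 0.05 and the black bar is the median. The medians of the 50-gene list (0.60) and of the other interferon-inducible genes (0.50) lie right of those of receptors and kinases (-0.01) and upstream sensing (0.03).

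Another 81 tested genes are known to be inducible by interferon but were not on the list. Their median was 0.50, against 0.01 over all tested genes. Of the 81, 6 were higher and 1 lower, where 1.32% of all tested genes rose and 0.48% fell. Those that rose were Gbp8 (2.58, edgeR FDR = 0.0349), Ddx60, a helicase gene (1.94, 0.0386), Gbp9 (1.81, 0.0474), Ly6a (1.57, 0.0382), Cd274, the checkpoint ligand PD-L1 (1.45, 0.0336), and Stat4 (1.30, 0.0336). Ly6a encodes Sca-1, a surface protein used to sort these cells. It had 23.1 and 33.6 CPM in labelled Hira KO and 10.3 and 8.86 CPM in labelled WT. Ifi30, a lysosomal thiol reductase gene induced by gamma interferon, fell (-1.87, edgeR FDR = 0.0427).

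Set out by chromosome, a grouping made after the values were seen, the GBP genes divided. On chromosome 3, Gbp2, Gbp3, Gbp5 and Gbp7 ranged from 0.09 to 1.20, with 0 of 4 called. On chromosome 5, Gbp4, Gbp6, Gbp8, Gbp9 and Gbp11 ranged from 1.81 to 5.42, with 2 of 5 called. Gbp6 had 50.9 and 178 CPM in labelled Hira KO and 7.83 and 4.27 CPM in labelled WT (4.24, SE 0.86, edgeR FDR = 0.116). Gbp4 had 18.4 and 52.4 CPM in labelled Hira KO and 6.78 and 3.88 CPM in labelled WT (2.73, SE 0.61, edgeR FDR = 0.0947). In these chromosome 5 genes labelled Hira KO replicate 2 was the highest library. Both labelled Hira KO libraries exceeded both labelled WT libraries in all 5, against 28.3% of all tested genes. The 5 are neighbouring genes of the same family, so they are not 5 independent observations.

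Marker genes of other cells and of handling moved between the same libraries. The 14 markers of stem and progenitor cells summed to 854 and 775 TPM in labelled Hira KO and 538 and 432 TPM in labelled WT. Those that rose included Meis1, Hlf, Flt3 and Ly6a. For this and the following marker lists, 1.32% of all tested genes rose and 0.48% fell. Both genes of the positive sort markers were present in every library: Kit had 330 and 327 CPM in labelled Hira KO and 274 and 351 CPM in labelled WT, with overlapping groups, and Ly6a, given above, was higher in labelled Hira KO (log2 fold change 1.57). The 13 granulocyte and monocyte markers summed to 2677 and 1319 TPM in labelled Hira KO and 5794 and 2960 TPM in labelled WT, with 2 falling, and the 9 B cell markers to 156 and 99.7 TPM in labelled Hira KO and 306 and 205 TPM in labelled WT, with 1 falling. Markers of plasmacytoid dendritic cells, a main source of type I interferon, summed to 127 and 80.4 TPM in labelled Hira KO and 136 and 104 TPM in labelled WT. Of 9 tested 0 passed by edgeR (1 upward and 2 downward at an unadjusted p below 0.05), while Klk1 and Cd209d had 0 counts in both labelled Hira KO libraries. The median log2 fold change of the 9 was -0.61, with 7 below 0. Both labelled Hira KO libraries lay below both labelled WT libraries in 5 and above them in 2. Of all tested genes 27.8% lay below and 28.3% above. In 7 plasma cell markers, of which 1 rose, the sum was 253 and 151 TPM in labelled Hira KO and 78.4 and 41.0 TPM in labelled WT. Of the T cell markers 1 of 7 tested rose, and 0 of the tested NK cell, erythroid, megakaryocyte and macrophage markers passed in either direction. Erythroid markers summed to 638 and 222 TPM in labelled Hira KO and 850 and 842 TPM in labelled WT, with a median log2 fold change of -1.14. Of these 12, 7 were lower in both labelled Hira KO libraries than in both labelled WT libraries, against 27.8% of all tested genes. Macrophage markers summed to 31.6 and 34.0 TPM in labelled Hira KO and 43.2 and 26.0 TPM in labelled WT.

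The 18 immediate-early genes, which respond within minutes to signals and to cell handling, summed to 907 and 2714 TPM in labelled Hira KO and 199 and 110 TPM in labelled WT, with 3 of 17 tested rising. All 17 tested were above both labelled WT libraries in both labelled Hira KO libraries, where 28.3% of all tested genes were. Their median log2 fold change was 3.66, and 13 had an unadjusted p below 0.05 by edgeR, all upward. The sum was highest in labelled Hira KO replicate 2. The interferon-stimulated genes had a median log2 ratio of 0.09 for that library over replicate 1, against -0.003 over all tested genes. The ratio was above 0 in 32 of 49, Rsad2 among them, where it was in 49.7% of all tested genes. The part that cell makeup or handling had in the interferon-stimulated genes was not tested. In these bulk libraries more cells expressing a gene and more RNA per cell cannot be told apart.

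Open chromatin was then read near the 50 genes. The authors' peak lists held 92839 and 73715 intervals in labelled Hira KO and 79565 and 63422 in labelled WT, called separately in each library. Of the 50 genes 49 had an open region within 10 kb of the gene body, and 45 (90%) had one called in all 4 libraries, against 90.6% of tested genes. Ifi44, the gene with the smallest p-value, was the exception, with no region within 10 kb. A region called in both labelled Hira KO libraries and neither labelled WT library lay near 9 of the 50 genes, against 22.5% of tested genes. The reverse held for 11 of the 50 genes, against 17.0% of tested genes. Both shares are near the background.

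None of the 7 genes that rose had a region found in the labelled Hira KO pair and not in labelled WT within 10 kb. Ddx58 and Xaf1 each had one found in the labelled WT pair and not in labelled Hira KO. That of Ddx58 (chr4:40243166-40243423) lay 3341 bp from the gene, with the authors' fold enrichment over background at 5.77 and 4.60 in labelled WT. Rsad2 had 2 regions found in the labelled Hira KO pair and not in labelled WT, 1 of them inside the gene (chr12:26452968-26453311), with fold enrichments of 2.56 and 4.46 in labelled Hira KO. The other, outside the gene (chr12:26439380-26439779), had 7.69 and 5.15 in labelled Hira KO, where the median peak of a list had 6.35 to 7.55. Usp18 and Ifi47 had regions of both kinds.

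At the promoter itself, the window from 250 bases before to 50 after the annotated start, the peaks of the genes that rose ranked below those of the rest of the list, a description with no test. A RefSeq window (GRCm38.p6) was matched for 39 of the 50 genes, and a region there was called in all 4 libraries for 32 of the 39. Among the 6 genes that rose and had a window, 3 had such a region. Ifi44 had no peak there in any library, and Ddx58 and Ifit1 had none in labelled WT replicate 2, so the medians rest on few genes. The median percentile rank of their fold enrichment within each library's own list, over the genes with a peak, was 49.5 and 51.4 in labelled Hira KO and 41.8 and 49.5 in labelled WT. Among the 32 genes tested and not called, 29 had one in all 4 libraries, with median ranks of 90.4 and 86.3 in labelled Hira KO and 88.0 and 84.4 in labelled WT. Over all tested genes a promoter region was called in all 4 libraries for 58.3% of the 132 genes that rose, 65.3% of the 49 that fell and 81.3% of the 10620 not called.

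**Figure D4:**
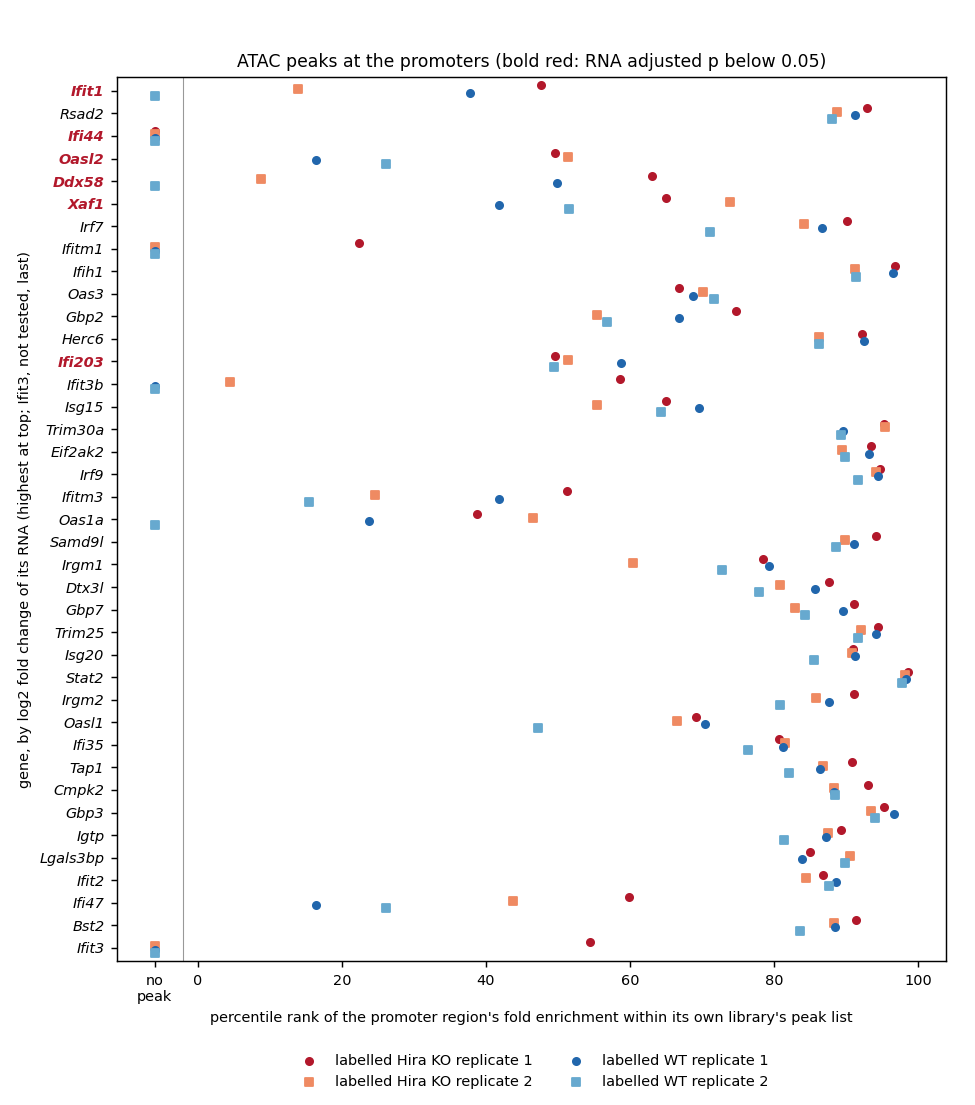
ATAC peaks at the promoters of 39 interferon-stimulated genes, as the percentile rank of the fold enrichment within each library's own peak list, with genes ordered by log2 fold change of their RNA. Points at the left edge mark libraries without a peak there. The 7 genes in bold red are less one without a window (Oas2), and their points lie below rank 80, while most genes not called lie above it.

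Among genes with a promoter peak in all 4 libraries, Oasl2, Xaf1, Trim30a and Ifi47 had higher fold enrichments in both labelled Hira KO libraries than in both labelled WT libraries, and Ifit2 and Isg15 lower ones. At Oasl2 the authors' fold enrichment was 6.53 and 7.89 in labelled Hira KO and 3.66 and 4.92 in labelled WT, and at Xaf1 it was 9.32 and 14.4 in labelled Hira KO and 5.39 and 7.55 in labelled WT. Ddx58 had 8.86 and 4.12 in labelled Hira KO and 6.35 in labelled WT replicate 1, with no peak in replicate 2. Trim30a had 60.8 and 62.1 in labelled Hira KO and 42.0 and 37.8 in labelled WT. Ifi47, whose RNA had a log2 fold change of -0.23, had 8.16 and 6.86 in labelled Hira KO and 3.66 and 4.92 in labelled WT. At Ifit2 the values were 24.0 and 24.4 in labelled Hira KO and 38.5 and 33.5 in labelled WT. At Stat2 it was 111 and 93.3 in labelled Hira KO and 118 and 86.0 in labelled WT, with overlapping groups. These values are scaled within each list and were not tested between lists. The genes named as higher or lower come from 32 with a promoter region in all 4 libraries. With 2 libraries per group, some promoters separate in this way by chance. The share over all promoters was not computed, so no change particular to these genes is read from them.

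The promoters were then searched for the letters of both interferon elements. The response element was written GAAA, any pair of bases, GAAA (on the other strand TTTC, any pair, TTTC), and the gamma-activated sequence TTCNNNGAA, which reads the same on both strands. The response element letters stood in 21 of the 39 windows (53.8%), against 3.99% of all 27025 genes with a window. The gamma-activated letters stood in 10 of 39 (25.6%), against 9.55%. Only exact matches were counted, so a window without one can still hold a near match. The letters of the elements overlapped in Bst2 and Ifitm3.

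Genes that rose were found both with and without the response element letters. Of the 20 tested genes with response element letters, 3 rose (Ifit1, Ifi203 and Ddx58, whose match lies 2 to 11 bases after the start) and the median log2 fold change was 0.62. Of the 18 without, 3 rose (Ifi44, Oasl2 and Xaf1) and the median was 0.27. Outside the list, 397 tested genes carried the letters, 9 of them rose (2.27%) and their median was 0.02; among 10367 without them 117 rose (1.13%).

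The following promoters show that range, each as the 200 bases before the annotated start from RefSeq, read in the direction of transcription, with the response element letters in capitals. Ifit1 and Rsad2 had the largest log2 fold changes, Ifi203 rose with a match before its second annotated start, and Ifi44 rose with no match.
Ifit1, chr19:34640689-34640888, plus strand: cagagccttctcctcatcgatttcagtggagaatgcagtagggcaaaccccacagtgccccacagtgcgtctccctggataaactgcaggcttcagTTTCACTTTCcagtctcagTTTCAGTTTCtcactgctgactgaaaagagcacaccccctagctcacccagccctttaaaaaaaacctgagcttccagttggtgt
Rsad2, chr12:26456453-26456652, minus strand: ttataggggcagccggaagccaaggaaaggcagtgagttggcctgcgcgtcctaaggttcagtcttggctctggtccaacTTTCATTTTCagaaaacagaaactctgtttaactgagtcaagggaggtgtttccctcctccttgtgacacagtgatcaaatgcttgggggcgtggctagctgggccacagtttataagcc
Ifi203, chr1:173942493-173942692, minus strand: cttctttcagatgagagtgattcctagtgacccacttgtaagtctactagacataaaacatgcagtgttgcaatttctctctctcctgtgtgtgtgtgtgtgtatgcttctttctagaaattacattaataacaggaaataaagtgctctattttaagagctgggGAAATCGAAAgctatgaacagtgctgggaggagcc
Ifi44, chr3:151749911-151750110, minus strand: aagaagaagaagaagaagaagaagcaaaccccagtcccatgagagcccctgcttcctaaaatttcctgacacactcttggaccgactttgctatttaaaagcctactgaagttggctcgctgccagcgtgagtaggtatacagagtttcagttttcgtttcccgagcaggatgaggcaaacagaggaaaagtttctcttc
Ifit1 carries a pair of matches 76 to 104 bases before the start, Rsad2 a single one at 111 to 120 and Ifi203 a single one at 26 to 35. The Ifi44 window holds no exact match to the response element letters. That says nothing of near matches inside the window, which were not counted, or of sites elsewhere.

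Near copies of a promoter are shown as pairs. Ifit3 and Ifit3b share a pair of matches with the same letters as each other and had few counts, and Igtp and Irgm2, 7.4 kb apart, share a single match and had log2 fold changes of -0.07 and 0.15.
Ifit3, chr19:34583329-34583528, plus strand: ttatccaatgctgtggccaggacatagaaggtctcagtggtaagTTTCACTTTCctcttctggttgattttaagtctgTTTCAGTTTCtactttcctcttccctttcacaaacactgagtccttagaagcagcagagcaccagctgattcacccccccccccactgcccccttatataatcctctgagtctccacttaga
Ifit3b, chr19:34607757-34607956, plus strand: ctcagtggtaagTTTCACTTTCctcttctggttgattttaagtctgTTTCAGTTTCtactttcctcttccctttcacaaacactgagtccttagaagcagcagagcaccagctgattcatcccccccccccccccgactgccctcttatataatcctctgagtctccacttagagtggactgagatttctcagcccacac
Igtp, chr11:58199356-58199555, plus strand: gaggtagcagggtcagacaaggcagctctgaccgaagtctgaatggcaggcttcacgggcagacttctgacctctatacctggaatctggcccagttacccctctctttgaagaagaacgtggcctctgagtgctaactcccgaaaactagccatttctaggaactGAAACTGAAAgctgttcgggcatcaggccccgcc
Irgm2, chr11:58214777-58214976, plus strand: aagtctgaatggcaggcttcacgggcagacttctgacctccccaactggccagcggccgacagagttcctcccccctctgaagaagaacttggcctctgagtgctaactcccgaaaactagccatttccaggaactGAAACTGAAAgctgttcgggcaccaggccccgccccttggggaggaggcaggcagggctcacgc
The pair in Ifit3 lies 113 to 156 bases before the start and in Ifit3b 145 to 188. Igtp and Irgm2 each also hold gamma-activated letters just before the match, at 37 to 45 and at 67 to 75 bases before the start.

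**Figure D5:**
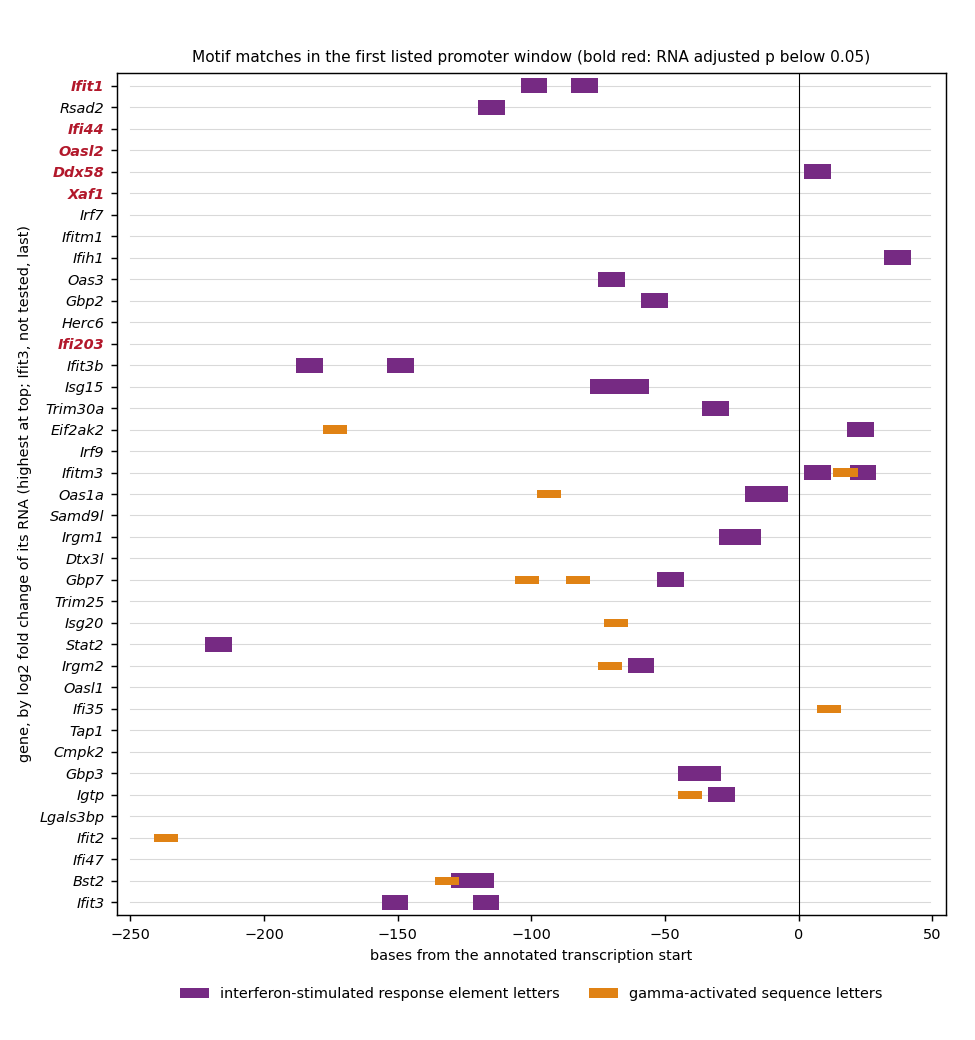
Positions of the interferon-stimulated response element letters (purple) and the gamma-activated sequence letters (orange) in the first listed promoter window of 39 genes, in bases from the annotated start, with genes ordered by log2 fold change of their RNA. Matches lie along the whole order; Ifi44, Oasl2 and Xaf1 have none, and the match of Ifi203 is in its second window, not drawn.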

How the data were processed

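The labels gave 2 RNA-seq and 2 ATAC-seq libraries each for labelled Hira KO and labelled WT LSK cells; groups follow the titles. Libraries were made with the NuGEN Ovation and Illumina Nextera XT kits, per the labels' protocols. Strand is not stated, so antisense partners cannot be told apart. Trim Galore 0.4.5, Bowtie2 2.2.9, MACS2 2.1.1, STAR 2.5.3a, RSEM 1.3.0, HTSeq, bedtools, DESeq2 and the build GRCm38 are named per the submitters' processing notes, without roles.

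The RNA tables deposited by the authors hold, per the file headers, the expected count (an estimate, not normalized), TPM, effective length and the posterior SD of the count for each gene. The ATAC lists deposited by the authors hold peaks called per library with a fold enrichment (a ratio to background), a −log10 p-value and a −log10 q-value. Their read depth and the treatment of the transposase offset are not given in the sources used here.

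Expected counts were rounded and fitted with edgeR 4.0.16 in R 4.3.3 (TMM, filterByExpr, robust quasi-likelihood F test, genotype as the only term, all 4 RNA libraries). CPM use TMM-scaled library sizes. The biological coefficient of variation was 27.8%. Libraries of a group differed by more than sampling noise (chi-square per gene 74.8 in labelled Hira KO and 54.6 in labelled WT). The step was tested on simulated data. Pairwise ratios used a pseudocount of 0.5 CPM. Counting limits cover counting error only. Alternatives were limma 3.58.1 on log2(TPM + 1) and log2(TPM + 0.1), DESeq2 1.42.0, other filters and scalings, a replicate block and each library left out.

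Peaks overlapping by at least 1 bp were merged and assigned to genes within 10 kb. Gene positions and promoter windows came from RefSeq tables of GRCm38.p6; 11 of the 50 genes had no matched window.

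The genes, families, pathway and marker lists were chosen with earlier results of these data known. Named genes were those past the threshold, the member of each family with the highest mean TPM, those with a negative log2 fold change or too few counts, Hira, and for each pathway list those past the threshold or else those with the smallest p-values; other genes were named after their values were seen. Single values of some listed genes are not reported here.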

Additional observations from a re-analysis of the deposited data

How the results depend on the processing

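The median log2 fold change of the interferon-stimulated genes stayed above 0 under every alternative run: it was 0.43 by limma on log2(TPM + 1), 0.50 on log2(TPM + 0.1), and 0.57 to 0.70 with 1 library left out. The number that rose, 7, was 18 by DESeq2 (5.65% of all tested genes rose), 18 with no low-count filter (4.06%), 11 when 1 CPM was required in every library (2.95%), and 0 to 20 with 1 library left out (0.0057% to 9.45%); the number that fell, 0, was then 0 to 1. The same 7 genes were called with DESeq2 size factors and without mitochondrial genes, and 4 of them by limma on either TPM scale. Deviations from the group means on the log2 CPM scale hardly followed the replicate numbers (correlation 0.022 over 16258 genes). The mitochondrial share did follow them, at 42.9% and 40.8% in replicate 1 of labelled Hira KO and labelled WT and 53.1% and 51.7% in replicate 2. With the replicate number as a block 9 rose and the median was 0.60. Of the 7, 6 were kept, Ifi203 missing the threshold at an edgeR FDR of 0.0506. Direction turned round for a few small groups and genes. The IFIT median was -0.13 under the stricter filter, which left 1 gene. With 1 library left out the GBP median ran from -0.045 to 0.54, the IRG median from -0.34 to 0.61, Gbp7 from -0.045 to 0.47 and Igtp from -0.52 to 0.54; the lowest of each came without labelled WT replicate 2 and the highest without labelled WT replicate 1. The IRG median was also below 0, at -0.16, without labelled Hira KO replicate 1. Igtp had 0.088 without labelled Hira KO replicate 2, and 0.0018 under the replicate block. Lgals3bp had 0.13 when labelled Hira KO replicate 2 was dropped, 0.0853 on log2(TPM + 1) and 0.0853 on log2(TPM + 0.1). Genes with a region called only in labelled Hira KO were 25 within 50 kb, where 43.0% of tested genes were, and 10 to 34 with 1 library left out, where 27.3% to 54.3% were. Those with a region called only in labelled WT were 6 within 2 kb (12.1% of tested genes), 7 at a −log10 q of at least 5 (13.9%), and 13 to 24 with 1 library left out (24.4% to 44.7%). The causes were not tested. There were 2 libraries per group, and depth limits Ifit3, Isg15 and the interferon genes, which had few counts.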
